A study of Mus musculus with 15 samples.

Results

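The methyl-CpG-binding domain family and the DNA methyltransferases *Dnmt1* and *Dnmt3a* were followed in cerebellar cultures stimulated with IL-12. The 8 genes were chosen by their symbols, *Mbd1* to *Mbd6*, *Dnmt1* and *Dnmt3a*, out of 35142 genes to which the quantified transcripts could be assigned, and the transcripts of *Mbd1* were also kept apart. All 8 genes passed the filter on low counts, an abundance of 1 CPM (counts scaled to sequencing depth) reached by 2 or more cultures, as did 15360 genes in all. The study had picked out *Mbd1* from these same cultures, so its difference between groups is described again here and is not independent evidence.

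RNA of 15 whole cultures was sequenced: 5 had no stimulus, and 5 each had received recombinant IL-12p70 of the mouse at 30 or 100 ng/ml for 18 h on day 14 in vitro. Every culture came from cerebella of wild-type C57BL/6 pups of postnatal days 0 to 4, dissociated onto poly-L-lysine and kept in Neurobasal Plus with B27 Plus. Replicates were numbered 1 to 5 in each group, and no label ties them to separate litters or preparations, so p-values measure the spread between these cultures only. Each culture held 25746096 to 38435850 estimated reads, and replicate 2 at 100 ng/ml stood apart from its group: leaving it out took the share of genes called with 100 ng/ml from 9.77% to 19.1%.

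The labels call the cells neurons, but markers of glia were abundant. Before stimulation the 10 neuronal markers summed to 164 to 218 TPM (transcript abundance corrected for length and depth), 10 microglial markers to 6311 to 8827 TPM, 8 astrocyte markers to 3417 to 3894 TPM and 10 oligodendrocyte-lineage markers to 6267 to 9287 TPM. Every neuronal marker except *Pcp2* was above 0 in every culture. The endothelial marker *Cldn5* and the NK-cell marker *Ncr1* were listed at 0 in all 15 cultures, but other markers of their lists were found. Mean levels before stimulation were 18.9 TPM for endothelial *Flt1*, 2.66 for *Cdh5* and 0.498 for *Pecam1*. Of the T and NK cell markers *Cd4* was at 3.29, *Klrb1c* at 0.876, *Cd8a* at 0.0571 and *Cd3e* at 0.0179 TPM. The cultures were therefore mixed, and a difference in the share of a cell type cannot be told apart from a difference in RNA per cell.

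DNA methylation in vertebrates lies mostly on cytosines that precede guanines (CpG). DNMT3A places the mark on unmethylated DNA and DNMT1 copies it onto the new strand after replication, guided by UHRF1. MBD1, MBD2 and MBD4 read methylated CpG through their methyl-CpG-binding domain and bring in repressors or, for MBD4, DNA repair, whereas MBD3, MBD5 and MBD6 carry the domain without binding methylated CpG selectively. MBD1 in addition binds unmethylated CpG through a CXXC zinc finger, pairs with histone H3 lysine 9 methyltransferases, and is known in neural stem cells as a regulator of neurogenesis that represses *Fgf2*.

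The starts of the member genes differ in how many CpG they hold, the dinucleotide that the family reads and the methyltransferases modify. RefSeq promoter windows on GRCm38.p6 were at hand for 6 of the 8 members, in 12 windows, and covered neither *Mbd1* nor *Mbd2*. In the 250 bases before the start, the 12 windows held 2 to 40 CpG, against a median of 6 over 32851 windows of all genes. Stretches with few, intermediate and many CpG are shown in lower case with each CpG in capitals, cut where an exon annotated in GENCODE M39 begins. They were placed on GRCm39 by exact match. The first stands before the most upstream *Dnmt1* start, that of Dnmt1-202 (chr9:20871185-20871434, minus strand), the second before *Mbd3* (chr10:80235398-80235615, minus strand) and the third before a *Dnmt3a* start of RefSeq that lies inside the gene as GENCODE M39 draws it (chr12:3856730-3856962, plus strand).
Dnmt1: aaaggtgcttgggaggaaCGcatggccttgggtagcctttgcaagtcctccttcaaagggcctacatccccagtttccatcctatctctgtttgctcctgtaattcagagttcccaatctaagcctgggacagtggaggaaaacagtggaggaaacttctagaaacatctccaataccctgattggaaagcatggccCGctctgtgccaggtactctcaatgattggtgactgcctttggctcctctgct
Mbd3: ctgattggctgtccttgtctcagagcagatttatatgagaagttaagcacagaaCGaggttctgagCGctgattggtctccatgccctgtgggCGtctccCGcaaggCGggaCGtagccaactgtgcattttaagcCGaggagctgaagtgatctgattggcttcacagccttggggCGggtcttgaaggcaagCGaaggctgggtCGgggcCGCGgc
Dnmt3a: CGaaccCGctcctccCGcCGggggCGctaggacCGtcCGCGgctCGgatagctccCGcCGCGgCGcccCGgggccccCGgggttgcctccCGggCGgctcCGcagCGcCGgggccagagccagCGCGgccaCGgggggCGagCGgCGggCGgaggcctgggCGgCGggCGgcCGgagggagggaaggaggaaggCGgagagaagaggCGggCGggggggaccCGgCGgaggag
The *Dnmt1* stretch has 2 CpG in 250 bases, the *Mbd3* stretch 12 in 218 and the *Dnmt3a* stretch 36 in 233. *Dnmt1* also has starts with more CpG: the windows before Dnmt1-203 and Dnmt1-201 held 26 and 7 CpG in 250 bases. The palindromic motif TTCNNNGAA, a pattern that STAT proteins downstream of cytokine receptors are known to bind, was found on either strand in 2 of the 12 windows, 1 of *Mbd5* and 1 of *Mbd6*, and in 7.02% of all windows. No methylation or binding was measured in these cultures.

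*Mbd1* (ENSMUSG00000024561) lies on chromosome 18 at 74400676 to 74415803 of the GRCm39 assembly and *Mbd2* (ENSMUSG00000024513) on the same chromosome at 70701260 to 70762203, both on the plus strand. *Mbd3* (ENSMUSG00000035478) is at 80225002 to 80235397 and *Mbd6* (ENSMUSG00000025409) at 127117825 to 127124936 of chromosome 10, both on the minus strand. *Mbd4* (ENSMUSG00000030322) is at 115817646 to 115830361 of chromosome 6, minus strand, and *Mbd5* (ENSMUSG00000036792) at 48839508 to 49215417 of chromosome 2, plus strand. *Dnmt1* (ENSMUSG00000004099) is at 20817945 to 20871184 of chromosome 9, minus strand, and *Dnmt3a* (ENSMUSG00000020661) at 3856007 to 3964443 of chromosome 12, plus strand. A long non-coding gene on the opposite strand, *Gm58866*, covers 9735 bases of *Mbd1* in the annotation and was not quantified. Of the quantified genes, *Gm44206* overlaps *Mbd4* by 7305 bases, *Orc4* overlaps *Mbd5* by 782 bases, *Dctn2*, *Ddit3* and *Gm20492* overlap *Mbd6* by 1245, 669 and 583 bases, and *Dnmt3aos* overlaps *Dnmt3a* by 2952 bases, all on the opposite strand. The library kit marks strand, but whether the quantification used it is not given in the sources used here, so reads of such pairs may be shared.

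Per length, in TPM, *Mbd3* was the most abundant member in unstimulated cultures at 149 ± 9.82 TPM (SD, n = 5), followed by *Mbd1* at 116 ± 4.61 and *Mbd2* at 115 ± 3.70 TPM. *Mbd1* and *Mbd2* overlapped there and could not be ranked. *Dnmt3a* at 46.9 ± 7.78, *Dnmt1* at 32.4 ± 1.65, *Mbd6* at 18.6 ± 2.98, *Mbd5* at 11.2 ± 2.18 and *Mbd4* at 5.55 ± 0.721 TPM followed, each apart from its neighbour. With 30 ng/ml the level of *Mbd1* was 150.1 ± 11.0 TPM and stood apart from *Mbd2* at 119 ± 2.66 TPM, with every *Mbd1* value above every *Mbd2* value. With 100 ng/ml *Mbd1* was at 157 ± 8.74 TPM, overlapped *Mbd3* at 170.4 ± 6.72 TPM, and *Dnmt3a* at 46.0 ± 9.04 TPM overlapped *Dnmt1* at 36.5 ± 3.46 TPM. The share of *Mbd1* in the summed TPM of *Mbd1* to *Mbd6* was 25.8% to 29.9% in unstimulated cultures, 30.1% to 33.2% with 30 ng/ml and 30.8% to 35.3% with 100 ng/ml, and the stimulated ranges lay above the unstimulated one.

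The plot of the members by culture shows CPM, which are scaled for depth and composition but not for length, so they compare 1 gene between cultures and not genes with each other.

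**Figure D1:**
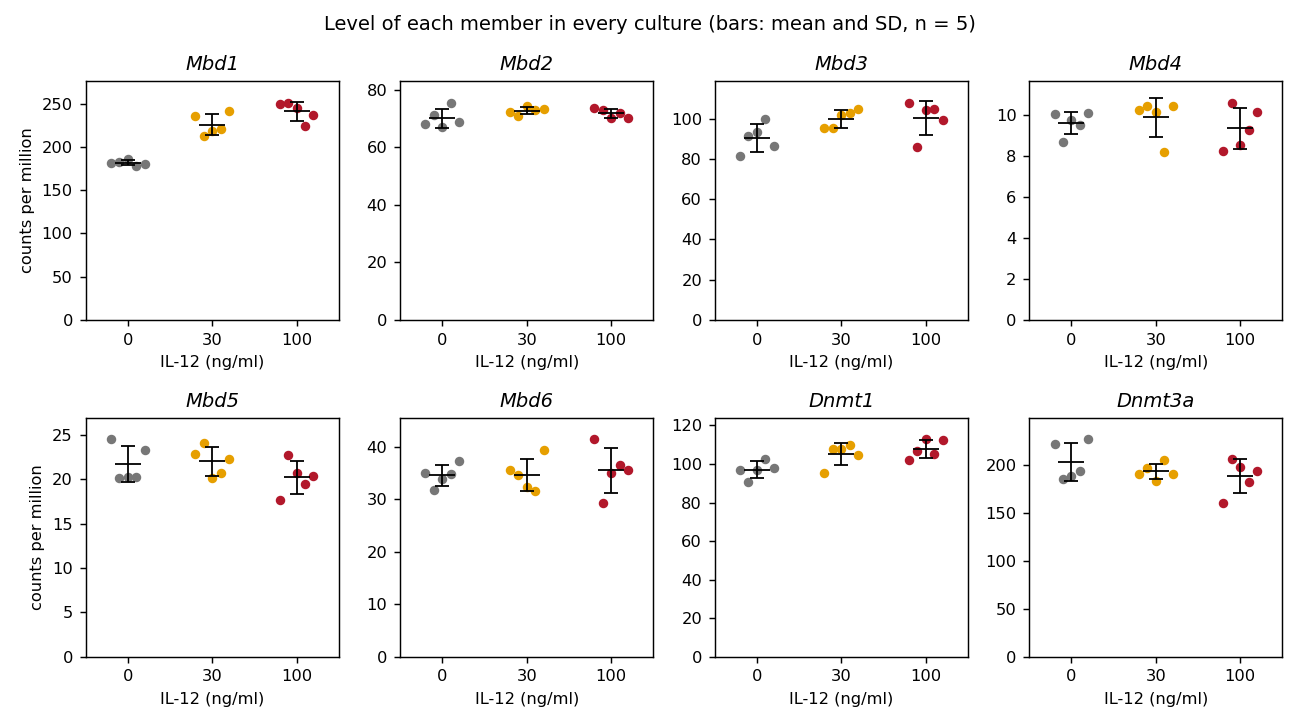
Level of each of the 8 genes in CPM (vertical axis) in every culture by IL-12 concentration (horizontal axis, ng/ml); points are cultures in order of replicate number, bars the mean and SD of 5. All 10 stimulated cultures lie above the 5 unstimulated ones for *Mbd1* (212.7 to 250.9 against 178 to 186 CPM), and the groups overlap for the other 7 genes.

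*Mbd1*, which recruits H3K9 methylation and heterochromatin proteins to methylated CpG, was higher in stimulated cultures. Both stimulated groups were set against the same 5 unstimulated cultures, so their differences are not independent of each other. Its level in unstimulated cultures was 181, 183, 186, 178 and 180.4 CPM in replicates 1 to 5. Cultures given 30 ng/ml held 236, 213, 218, 221 and 242 CPM, and with 100 ng/ml 249.5, 251, 245, 224 and 236 CPM. The 5 unstimulated cultures lay close together, and every stimulated culture was above all of them, a pattern that 1.98% of the tested genes had (4.34% had it with 100 ng/ml and 5.44% with 30 ng/ml alone). Against unstimulated cultures *Mbd1* rose by 0.41 ± 0.04 on the log2 scale (SE) with 100 ng/ml, or 32.7% (95% interval 24.6% to 41.3%; edgeR quasi-likelihood FDR = 1.6e-05). The rise with 30 ng/ml was 0.31 ± 0.04, or 24.3% (16.7% to 32.4%; FDR = 0.000479). By p-value it stood 25th of 15360 genes with 100 ng/ml, but by size 229 of the 896 genes that rose had a larger rise.

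Between both concentrations the difference of *Mbd1* was 0.09 ± 0.04 on the log2 scale (95% interval 0.00 to 0.19), with an edgeR FDR of 0.374. Replicates 4 and 5 at 100 ng/ml, at 224 and 236 CPM, lay within the range of the 30 ng/ml cultures. A further rise from 30 to 100 ng/ml was thus not detectable after adjustment over all genes.

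Over 25 alternative settings its log2 fold change was 0.38 to 0.44 with 100 ng/ml and 0.29 to 0.34 with 30 ng/ml, with an FDR under 0.05 in each. Replicate 2 at 100 ng/ml was the highest of all *Mbd1* values, and leaving it out gave a log2 fold change of 0.39 with 100 ng/ml.

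With 100 ng/ml, 2 of the 8 members were called at an FDR under 0.05, *Mbd1* and *Dnmt1*, both higher, where 9.77% of all genes were called in either direction and 5.83% were higher. The lower concentration gave 1 call of 8, *Mbd1*, where 7.87% of all genes were called and 4.16% were higher (639 higher and 570 lower, or 890 and 521 with library size alone as the scaling). Between 100 and 30 ng/ml 0 of 8 were called by edgeR, DESeq2 or edgeR's likelihood-ratio test, where 0.579% of all genes were called by edgeR. In each test 1 member had an unadjusted p under 0.05 (*Mbd1*), and in edgeR 1944 of all 15360 genes did. When both stimulated groups were averaged and set against the unstimulated one, *Mbd1* and *Dnmt1* were called, both higher, where 11.9% of all genes were called and 6.71% were higher. Without replicate 2 at 100 ng/ml *Mbd3* was called too, 3 of 8 with 100 ng/ml, and 1 of 8 was called wherever *Dnmt1* lost its call, except that with effective lengths in the fit *Mbd3* was called in its place, 2 of 8 with 100 ng/ml. The median log2 fold change of the members was 0.04 with 100 ng/ml and 0.05 with 30 ng/ml, and that of all genes tested -0.00 and 0.00.

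**Figure D2:**
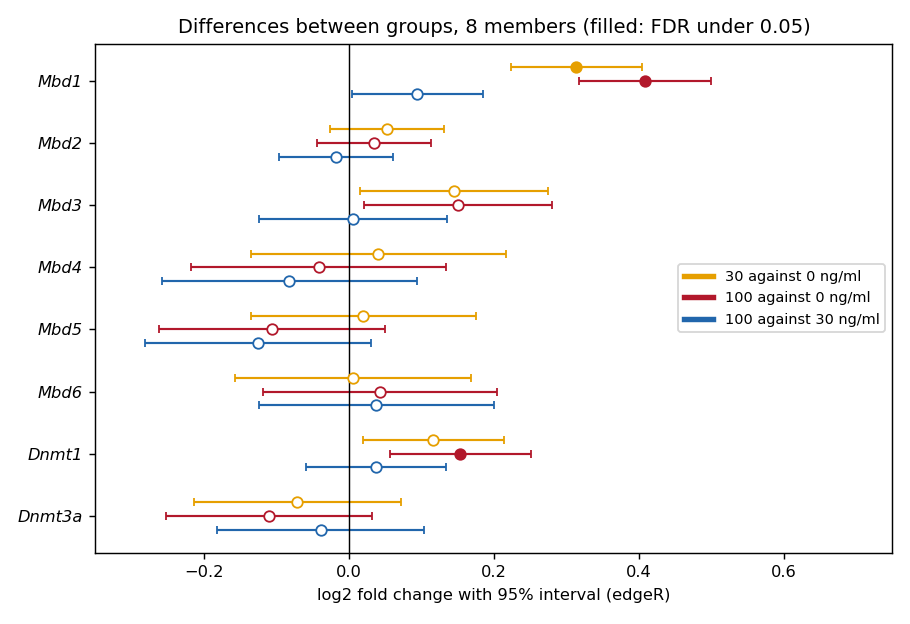
Difference between groups for each member on the log2 scale (horizontal axis) with its 95% interval, from edgeR; orange is 30 ng/ml and red 100 ng/ml against unstimulated cultures, blue is 100 against 30 ng/ml, and filled points have an FDR under 0.05. The *Mbd1* intervals start at 0.22 and 0.32, and that of *Dnmt1* with 100 ng/ml starts at 0.06.

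*Dnmt1*, the maintenance methyltransferase, was at 97.0, 90.4, 96.6, 103 and 97.8 CPM in unstimulated replicates 1 to 5. Cultures given 30 ng/ml were at 95.5, 108, 108, 109.6 and 105 CPM, and with 100 ng/ml at 102, 107, 113, 105 and 112 CPM. The groups overlapped at their edges, since unstimulated replicate 4 was above 1 culture of each stimulated group. *Dnmt1* rose by 0.15 ± 0.05 on the log2 scale with 100 ng/ml, or 11.2% (95% interval 4.01% to 19.0%; edgeR FDR = 0.0429), and its difference with 30 ng/ml was 0.12 ± 0.05 (FDR = 0.135). This call was near the threshold, and 9 of 25 alternative settings kept it, with the FDR at 0.0244 to 0.107. It was lost without unstimulated replicate 1, 2, 3 or 5, without replicate 2, 3 or 5 at 30 ng/ml, or without replicate 3, 4 or 5 at 100 ng/ml, where the difference was 0.13 to 0.16 and the FDR 0.0520 to 0.107.

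*Uhrf1*, the partner that brings DNMT1 to newly replicated DNA, was at 51.5, 52.1, 52.0, 55.8 and 53.3 CPM in unstimulated cultures and at 59.0, 57.8, 60.5, 58.8 and 62.5 CPM with 100 ng/ml, without overlap. In TPM *Uhrf1* did overlap, at 25.1 to 32.1 in unstimulated cultures and 27.7 to 37.9 with 100 ng/ml. It rose by 0.17 ± 0.05 on the log2 scale (edgeR FDR = 0.0411), and with 30 ng/ml the difference was 0.14 ± 0.05 (FDR = 0.1). With effective lengths in the fit the FDR with 100 ng/ml was 0.313, with no low-count filter 0.0653 and with the replicate block 0.0503, and it was 0.05 or above, up to 0.0951, without unstimulated replicate 1, 2, 3 or 5, replicate 2 at 30 ng/ml or replicate 1, 3, 4 or 5 at 100 ng/ml. Without replicate 1 at 30 ng/ml the FDR with 30 ng/ml was 0.0183, and with library size alone as the scaling 0.0498. *Hells*, a chromatin remodeler that supports maintenance methylation, differed by 0.11 ± 0.07 with 100 ng/ml (edgeR FDR = 0.333). As DNMT1 and UHRF1 are known to act at replication, 12 proliferation genes were measured beside them, and these summed to 634 to 679 TPM in unstimulated cultures, 621 to 683 TPM with 30 ng/ml and 636 to 714 TPM with 100 ng/ml. Of these 12 genes, 2 rose with 100 ng/ml, *Mcm2* by 0.23 ± 0.05 and *Rrm2* by 0.24 ± 0.05 on the log2 scale (edgeR FDR = 0.00744 and 0.00307), where 5.83% of all genes were higher. *Rrm2* alone rose with 30 ng/ml, where 4.16% of all genes were higher. The 12 genes differed by -0.07 to 0.24 with 100 ng/ml, with a median of 0.08. With 30 ng/ml they differed by -0.18 to 0.23, with a median of 0.02. Their part in the result was not tested.

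*Dnmt3a*, the de novo methyltransferase, was at 222, 185, 189, 194 and 227 CPM in unstimulated cultures, 191, 197, 184, 205 and 191 CPM with 30 ng/ml and 161, 207, 198, 182 and 194 CPM with 100 ng/ml. Unstimulated replicates 1 and 5 were the highest of all 15 cultures, and the groups overlapped. The difference was -0.11 ± 0.07 on the log2 scale with 100 ng/ml (95% interval -0.25 to 0.03; edgeR FDR = 0.326) and -0.07 ± 0.07 with 30 ng/ml (FDR = 0.585).

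*Mbd2*, which recruits the NuRD deacetylase and remodeling complex to methylated DNA, was at 68.2, 71.1, 67.1, 75.4 and 68.6 CPM in unstimulated cultures, 72.2, 70.9, 74.2, 72.8 and 73.4 CPM with 30 ng/ml and 73.8, 72.8, 70.1, 72.0 and 70.3 CPM with 100 ng/ml. All stimulated values lay within the unstimulated range. The difference with 100 ng/ml was 0.03 ± 0.04 on the log2 scale, and its 95% interval, -3.03% to 8.21%, leaves out the size of the *Mbd1* rise.

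*Mbd3*, the NuRD subunit related to MBD2, was at 81.6, 91.2, 93.3, 99.7 and 86.3 CPM in unstimulated cultures, 95.4, 95.1, 102, 103 and 105 CPM with 30 ng/ml and 108, 85.8, 104, 104 and 99.2 CPM with 100 ng/ml. The groups overlapped in CPM, since replicates 1 and 2 at 30 ng/ml and replicates 2 and 5 at 100 ng/ml lay within the unstimulated range and the other 6 stimulated cultures above it. In TPM the 30 ng/ml cultures did not overlap the unstimulated ones (164 to 181 against 138 to 163 TPM). The differences of 0.15 ± 0.06 with 100 ng/ml and 0.14 ± 0.06 with 30 ng/ml on the log2 scale had edgeR FDRs of 0.131 and 0.166, and unadjusted p-values from the same fit of 0.0255 and 0.0310. Leaving out replicate 2 at 100 ng/ml took the difference with 100 ng/ml to 0.20 ± 0.05 with an FDR of 0.0143, and with effective lengths in the fit it was 0.21 with an FDR of 0.0433, so this call turned on 1 culture and on the length correction.

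*Mbd4*, a DNA glycosylase that removes thymine from mismatches at CpG, was the least abundant member and varied from 8.21 to 10.6 CPM over all 15 cultures. Its differences were -0.04 ± 0.08 with 100 ng/ml (95% interval -14.0% to 9.77%) and 0.04 ± 0.08 with 30 ng/ml on the log2 scale, with edgeR FDRs of 0.802 and 0.828. *Mbd5* and *Mbd6*, which associate with the BAP1 deubiquitinase of histone H2A, ranged from 17.7 to 24.5 and from 29.3 to 41.4 CPM. With 100 ng/ml *Mbd5* differed by -0.11 ± 0.07 (edgeR FDR = 0.393) and *Mbd6* by 0.04 ± 0.08 (FDR = 0.776). At 30 ng/ml both differed by less than their SE, 0.02 ± 0.07 and 0.01 ± 0.08. Replicates 1 and 2 at 100 ng/ml held the highest and the lowest *Mbd6* value of all cultures, so its groups overlapped widely.

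Which *Mbd1* transcripts carried the rise was asked next. The files hold 7 *Mbd1* transcripts, of 78 in the GENCODE M39 annotation used here to name them, and 4 of them held at least 5% of the estimated *Mbd1* reads on average. Mbd1-202, a protein-coding transcript of 16 exons with a coding sequence of 644 codons, held 42.8% and was the main one. It has a 168-base exon, its 11th, that Mbd1-201 (15 exons, 588 codons, 16.2% of reads) lacks. Mbd1-204 (26.9%) starts within the 4th exon of the longer forms, encodes 467 codons and ends in an alternative last exon of 2556 bases, and Mbd1-205 (13.2%) is a retained-intron transcript that holds the first 2 exons and part of the intron after them, with no coding sequence. The remaining 3 transcripts, 1 of them protein-coding, held 0.234% to 0.379% each. The lengths that the files give for Mbd1-201 and Mbd1-202, 2833 and 2838 bases, are shorter than in M39, 3403 and 3571 bases, so the ends or exons used for the estimates differed from those drawn.

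**Figure D3:**
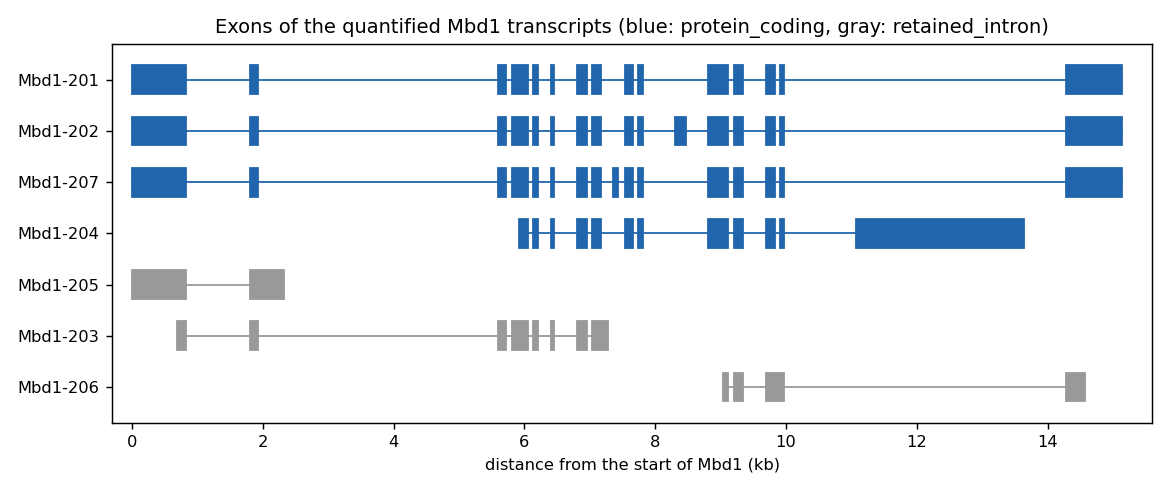
Exons (boxes) and introns (lines) of the 7 quantified *Mbd1* transcripts in GENCODE M39, by distance from the gene's start in kb (horizontal axis); blue transcripts are protein-coding, gray ones retain an intron. Mbd1-204 begins inside the gene and ends in its own last exon, and Mbd1-205 covers the first 2 exons.

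The main transcript, Mbd1-202, was at 75.7, 73.4, 72.8, 74.8 and 81.4 CPM in unstimulated cultures, 101, 95.2, 93.9, 94.4 and 100.4 CPM with 30 ng/ml and 103, 97.4, 108, 109.8 and 108 CPM with 100 ng/ml. Both stimulated groups lay above the unstimulated cultures. It rose by 0.48 ± 0.04 on the log2 scale with 100 ng/ml and by 0.36 ± 0.04 with 30 ng/ml (edgeR over 41631 transcripts, FDR = 0.000102 and 0.00309).

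The retained-intron transcript Mbd1-205 rose by 0.58 ± 0.08 and 0.43 ± 0.08 with 100 and 30 ng/ml (edgeR FDR = 0.0046 and 0.0429), from 22.5 ± 2.08 CPM (SD, n = 5) to 33.6 ± 2.60 and 30.2 ± 2.83 CPM. Its groups did not overlap the unstimulated cultures at either concentration. The shorter coding transcript Mbd1-204 went from 51.1 ± 1.42 CPM to 63.2 ± 4.52 with 100 ng/ml, a rise of 0.31 ± 0.05 on the log2 scale (edgeR FDR = 0.0171), and was at 59.3 ± 3.58 CPM with 30 ng/ml, where the difference of 0.22 ± 0.05 had an FDR of 0.122 in edgeR, while DESeq2 called it. Every stimulated culture of Mbd1-204 was above all unstimulated ones at both concentrations. Mbd1-201 was at 30.9 ± 6.19, 37.0 ± 2.11 and 36.5 ± 7.95 CPM in unstimulated, 30 and 100 ng/ml cultures. Its differences of 0.24 ± 0.15 and 0.26 ± 0.15 with 100 and 30 ng/ml had edgeR FDRs of 0.721 and 0.745, and its 95% interval with 100 ng/ml, -0.09 to 0.57, holds both 0 and the change of the main transcript.

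Of the 7 *Mbd1* transcripts, 3 were thus called with 100 ng/ml and 2 with 30 ng/ml, all higher, where 0.55% and 0.353% of all transcripts tested were called and 0.348% and 0.238% were higher. The call of Mbd1-205 with 30 ng/ml was lost, leaving 1, without unstimulated replicate 1, 3, 4 or 5, replicate 1, 3, 4 or 5 at 30 ng/ml, or replicate 3 or 5 at 100 ng/ml. Between 100 and 30 ng/ml 0 were called by edgeR or DESeq2, against 0.0216% of all transcripts in edgeR. An unadjusted p under 0.05 was held by 1, Mbd1-202, and in edgeR by 2436 of all 41631 transcripts. Among 30 tested transcripts of the other 7 members edgeR called 0 at either concentration, with 2 at an unadjusted p under 0.05 with 100 ng/ml and 1 with 30 ng/ml, and DESeq2 also called 0 in both. DESeq2 called 1 of them, Dnmt3a-205, between 100 and 30 ng/ml. Of all 41631 transcripts, 4107 with 100 and 3744 with 30 ng/ml had an unadjusted p under 0.05 in edgeR.

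**Figure D4:**
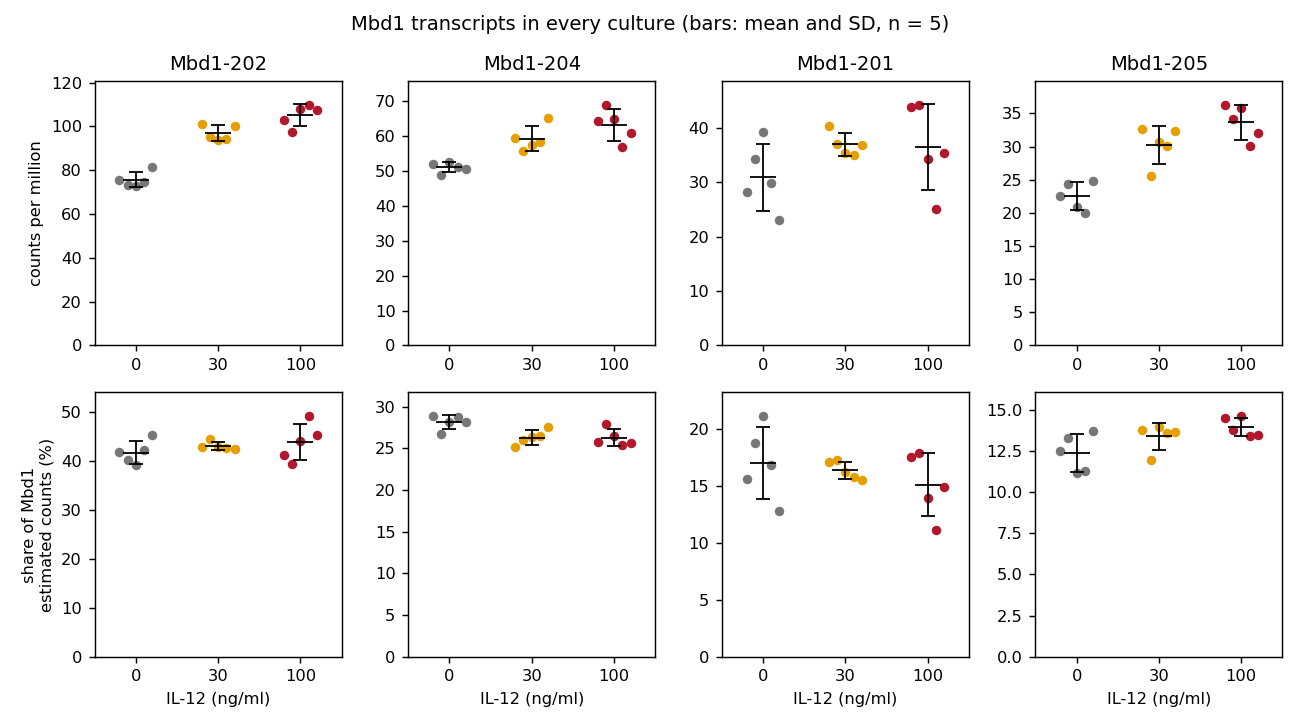
The 4 *Mbd1* transcripts with at least 5% of the gene's reads, as CPM (upper row) and as a share of all estimated *Mbd1* counts in percent (lower row), by IL-12 concentration (horizontal axis, ng/ml); points are cultures, bars the mean and SD of 5. Levels of Mbd1-202, Mbd1-204 and Mbd1-205 are higher in all stimulated cultures than in the unstimulated ones, and those of Mbd1-201 overlap. The shares of Mbd1-202 range over 39.1% to 45.1% in unstimulated cultures, 42.4% to 44.4% with 30 ng/ml and 39.4% to 49.0% with 100 ng/ml.

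The make-up of *Mbd1*, as the share of each transcript in its counts, was compared next. Mbd1-202 held 41.6% ± 2.31 of the estimated *Mbd1* counts in unstimulated cultures, 43.0% ± 0.804 with 30 ng/ml and 43.8% ± 3.72 with 100 ng/ml. The difference with 100 ng/ml was 2.13 percentage points (two-sided exact permutation p = 0.325, adjusted p = 0.497 over 12 tests) and that with 30 ng/ml 1.37 points (exact p = 0.214, adjusted p = 0.497). Mbd1-204 held 28.1% ± 0.835, 26.3% ± 0.853 and 26.2% ± 1.0, a share lower by 1.84 points with 30 ng/ml and by 1.88 points with 100 ng/ml at an exact permutation p of 0.0159 each, which adjustment over the 12 tests took to 0.0952. No share passed the adjusted threshold, and 0.00794 was the smallest unadjusted p that 5 cultures against 5 allow. Which program divided the reads between these overlapping transcripts is not named in the sources used here, and its estimates carry no error of their own.

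Genes known to work with the family were called in a share near that of all genes. Over 9 lists with 54 other genes, 52 passed the count filter (*Dnmt3l* and *Htr1a* did not). With 100 ng/ml 3 rose and 2 fell, 5 of 52, where 9.77% of all genes were called, and with 30 ng/ml 3 rose and 0 fell, where 7.87% of all genes were called. DESeq2 called 9 with 100 ng/ml, where it called 12.8% of all genes, and the likelihood-ratio test called 10. Without replicate 2 at 100 ng/ml 12 were called with 100 ng/ml, where 19.1% of all genes were called. Only 3 were called without unstimulated replicate 1 or 5, replicate 2 at 30 ng/ml or replicate 1, 4 or 5 at 100 ng/ml. A single listed gene was called with 30 ng/ml without unstimulated replicate 3. For the likelihood-ratio test and these last fits the share of all genes is not set beside the counts. Such counts therefore do not tell whether the listed genes differed from all genes. Between 100 and 30 ng/ml 0 were called by edgeR or DESeq2, with 1 and 2 at an unadjusted p under 0.05. Over all genes 1944 in edgeR and 1978 in DESeq2 had such a p. The median log2 fold change of the 52 listed genes was -0.01 with 100 and 0.01 with 30 ng/ml, beside -0.00 and 0.00 for all genes.

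**Figure D5:**
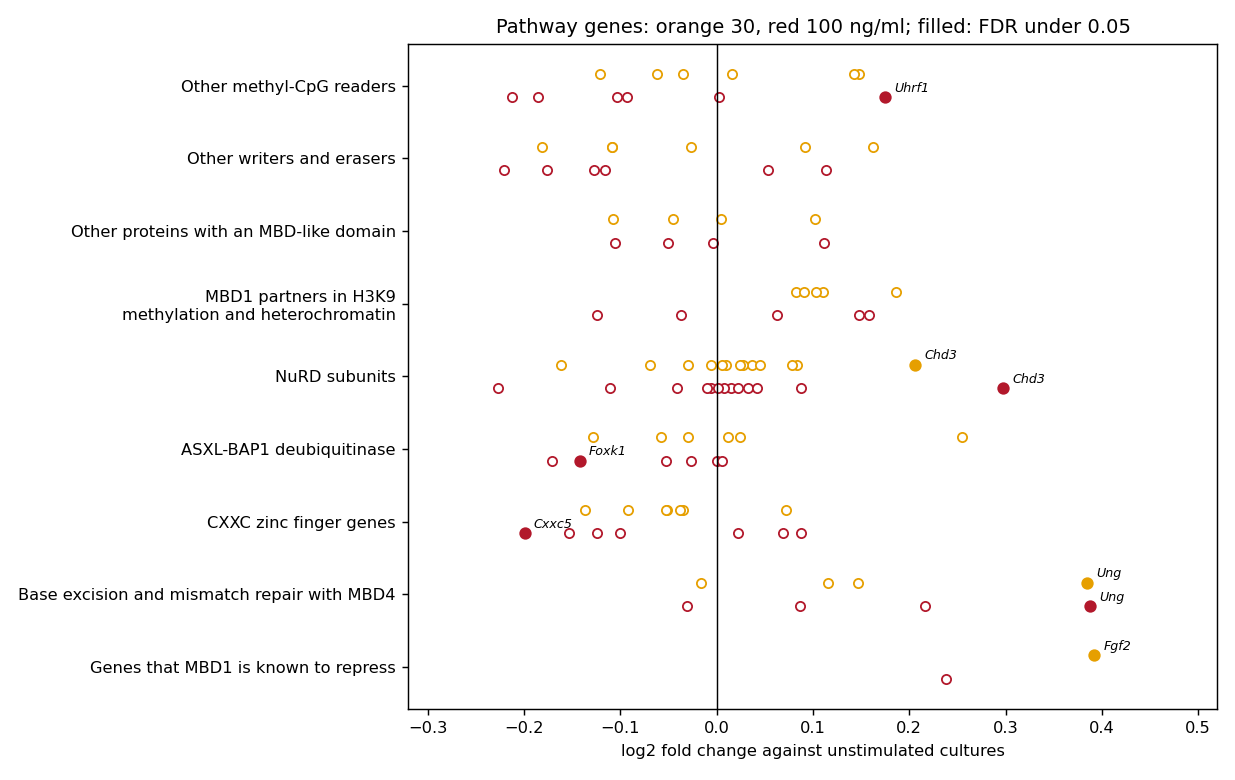
Log2 fold change against unstimulated cultures (horizontal axis) of the 52 tested genes of 9 lists around the family, orange for 30 and red for 100 ng/ml; filled points are named and have an FDR under 0.05. Most points lie between -0.2 and 0.2, and *Ung* with 30 and 100 ng/ml and *Fgf2* with 30 ng/ml lie between 0.38 and 0.39.

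Of 13 NuRD subunits, the complex that MBD2 and MBD3 join, 1 was called. *Chd3*, an alternative ATPase of the complex, was at 70.1, 62.3, 66.3, 72.8 and 69.9 CPM in unstimulated cultures, 81.8, 77.5, 71.7, 83.1 and 79.7 CPM with 30 ng/ml and 89.2, 83.7, 87.7, 78.7 and 80.3 CPM with 100 ng/ml. With 100 ng/ml all cultures were above the unstimulated ones in CPM, and with 30 ng/ml 1 culture lay within their range. In TPM it was the other way round. There 100 ng/ml overlapped (34.5 to 40.8 against 30.1 to 35.5 TPM) and 30 ng/ml lay above (35.7 to 44.3 TPM). *Chd3* rose by 0.30 ± 0.05 and 0.21 ± 0.05 on the log2 scale (edgeR FDR = 0.00165 and 0.0212). Without unstimulated replicate 3 or replicate 1, 4 or 5 at 30 ng/ml the latter FDR was 0.0506 to 0.0603. *Chd4*, the main ATPase, differed by 0.04 ± 0.05 with 100 ng/ml (edgeR FDR = 0.615), and the median over the 13 subunits was 0.01.

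Of 5 partners that link MBD1 to H3K9 methylation and heterochromatin, 0 were called by edgeR at either concentration. At each concentration 2, *Atf7ip* and *Chaf1a*, had an unadjusted p under 0.05, as did 3933 of all 15360 genes with 100 and 3482 with 30 ng/ml. *Atf7ip*, which bridges MBD1 and SETDB1, differed by 0.16 ± 0.07 and 0.19 ± 0.07 with 100 and 30 ng/ml (edgeR FDR = 0.144 and 0.0984), and *Chaf1a*, the chromatin assembly subunit that MBD1 binds, by 0.15 ± 0.05 and 0.10 ± 0.05 (FDR = 0.0521 and 0.198). DESeq2 and the likelihood-ratio test called *Chaf1a* with 100 ng/ml. *Setdb1*, an H3K9 methyltransferase with its own methyl-CpG-binding-like domain, rose by 0.11 ± 0.03 on the log2 scale for the mean of both concentrations (edgeR FDR = 0.0441), from 59.6 ± 2.39 to 64.0 ± 1.93 and 64.4 ± 1.67 CPM, and 9 of 24 alternative settings kept this call. Without unstimulated replicate 1, 2, 3 or 5, replicate 2, 4 or 5 at 30 ng/ml, or replicate 3, 4 or 5 at 100 ng/ml its FDR was 0.0501 to 0.113.

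*Fgf2*, a growth factor gene that MBD1 is known to repress in neural stem cells, was at 76.6, 69.2, 69.2, 58.2 and 70.9 CPM in unstimulated cultures, 93.5, 93.7, 97.2, 79.2 and 88.4 CPM with 30 ng/ml and 71.9, 98.0, 76.9, 77.1 and 82.4 CPM with 100 ng/ml. All 30 ng/ml cultures were above the unstimulated ones in CPM, whereas 100 ng/ml overlapped them. In TPM 30 ng/ml overlapped them too (35.3 to 42.7 against 15.4 to 35.6 TPM). *Fgf2* rose by 0.39 ± 0.08 on the log2 scale with 30 ng/ml (edgeR FDR = 0.00743), and its difference with 100 ng/ml was 0.24 ± 0.08 (FDR = 0.0725, and 0.0423 in the likelihood-ratio test). The rise was in the same direction as that of *Mbd1*. With effective lengths in the fit the FDR with 30 ng/ml was 0.128. *Htr1a*, a serotonin receptor gene that MBD1 is also known to repress, was at 0 in 12 of 15 cultures and was not tested.

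Among the other methyl-CpG readers described here, *Uhrf1* was called by edgeR with 100 ng/ml, as given above. *Zbtb33*, which encodes the reader Kaiso, differed by -0.21 ± 0.07 with 100 ng/ml (edgeR FDR = 0.0658), where DESeq2 and the likelihood-ratio test called it. It was also the 1 listed gene with an unadjusted p under 0.05 in edgeR between 100 and 30 ng/ml.

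*Ung*, a uracil glycosylase of the same repair route as MBD4, rose by 0.39 ± 0.10 and 0.38 ± 0.10 on the log2 scale with 100 and 30 ng/ml (edgeR FDR = 0.0163 and 0.0196), from 6.81 ± 1.02 CPM to 8.89 ± 0.508 and 8.88 ± 0.844 CPM. Its groups overlapped, since unstimulated replicate 2 was at 8.32 CPM, and with effective lengths in the fit the FDRs were 0.141 and 0.0638. Without unstimulated replicate 1 they were 0.0512 and 0.0534, and without unstimulated replicate 3 or 5 that with 30 ng/ml was 0.0503 and 0.0558. *Apex1*, the endonuclease that acts after glycosylases, differed by 0.22 ± 0.07 with 100 ng/ml (edgeR FDR = 0.0517), where DESeq2 and the likelihood-ratio test called it.

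The 2 of 52 listed genes that fell with 100 ng/ml, where 3.93% of all genes were lower, were *Cxxc5* and *Foxk1*. *Cxxc5*, which like MBD1 carries a CXXC zinc finger for unmethylated CpG, fell by 0.20 on the log2 scale with 100 ng/ml (SE 0.05, edgeR FDR = 0.0153), from 67.5 ± 1.99 to 58.8 ± 4.05 CPM. The difference with 30 ng/ml was -0.14 ± 0.05 (edgeR FDR = 0.0925), and without replicate 2 at 100 ng/ml that FDR was 0.0339. *Foxk1*, a transcription factor bound by the BAP1 complex, fell by 0.14 with 100 ng/ml (SE 0.04, edgeR FDR = 0.0386), from 46.2 ± 2.32 to 41.9 ± 1.66 CPM, a call that 10 of 25 alternative settings kept. Without unstimulated replicate 1, 3 or 5, replicate 1, 2, 4 or 5 at 30 ng/ml, or replicate 1, 4 or 5 at 100 ng/ml its FDR was 0.0507 to 0.106. Of the other CXXC genes *Kdm2b*, a histone demethylase, differed by -0.15 ± 0.05 on the log2 scale with 100 ng/ml and did not pass in edgeR (FDR = 0.0502). DESeq2 and the likelihood-ratio test called *Kdm2b* there. *Kdm2a* differed by -0.10 ± 0.04 with 100 ng/ml (FDR = 0.127) and *Cxxc1* by 0.07 ± 0.04 at both concentrations (FDR = 0.284 and 0.294). The median over the 7 CXXC genes was -0.10 with 100 and -0.05 with 30 ng/ml. Among 6 tested writers and erasers, with the TET dioxygenases and *Dnmt3b*, 0 were called by edgeR or DESeq2 at either concentration, with 1 at an unadjusted p under 0.05 in edgeR with 100 ng/ml, *Tet3*, and 2 with 30 ng/ml, *Tdg* and *Hells*. Of all 15360 genes, 3933 with 100 and 3482 with 30 ng/ml had such a p. The median log2 fold change of the 6 writers and erasers was -0.12 with 100 and -0.07 with 30 ng/ml.

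Genes whose level followed *Mbd1* most closely over the 15 cultures were taken from 14182 protein-coding genes by Pearson's r of log2 CPM. They were *Esm1* (r = 0.955), *Angptl4* (0.950), *Mill2* (0.948), *Syt12* (0.936) and *Ctps1* (0.935), all on other chromosomes. These r describe cultures that differ in stimulation, and whether their libraries were prepared together is not given in the sources used here. Within groups, after removing the group means, r was 0.527, 0.544, 0.810, 0.538 and 0.376 in the same order. All 5 genes were in CPM above every unstimulated culture in every stimulated culture, with log2 fold changes of 0.43 to 1.40 with 100 ng/ml and 0.32 to 1.07 with 30 ng/ml, and *Angptl4*, a secreted regulator of lipoprotein lipase, had the largest. As the 5 genes were chosen for following *Mbd1*, which has this pattern, their rise follows largely from the choice and is not separate evidence. In TPM *Mill2* and *Syt12* overlapped the unstimulated cultures. Among members, r with *Mbd1* was 0.604 for *Dnmt1* and 0.527 for *Mbd3* over all cultures and -0.421 and -0.104 within groups.

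Markers of the cell types in these mixed cultures moved beside *Mbd1*. With 30 ng/ml 6 of 10 microglial markers fell, where 3.71% of all genes were lower, and their sum was 5000.0 to 6255 TPM against 6311 to 8827 TPM in unstimulated cultures. With 100 ng/ml 0 of 10 passed the test in edgeR, and 2 of 10 had an unadjusted p under 0.05, as did 3933 of all 15360 genes. The microglial sum with 100 ng/ml was 5956 to 7920.3 TPM, overlapping the unstimulated range. Of 10 oligodendrocyte-lineage markers 3 fell with 100 ng/ml and 1 with 30 ng/ml, of 8 astrocyte markers 1 fell with 100 ng/ml and 2 rose with 30 ng/ml, and of 9 tested neuronal markers 1 rose (*Tubb3*) and 1 fell (*Calb1*) at each concentration, where 5.83% of all genes were higher and 3.93% lower with 100 ng/ml and 4.16% higher and 3.71% lower with 30 ng/ml. The astrocyte sum was 4065 to 4756 TPM with 30 ng/ml, above the unstimulated range, and 3791 to 4211 TPM with 100 ng/ml. Of the 9 neuronal markers 7 had a log2 fold change below 0 at each concentration, with a median over the 9 of -0.51 with 30 and -0.32 with 100 ng/ml, among them *Rbfox3* at -0.66 ± 0.23 and *Snap25* at -0.63 ± 0.23 with 30 ng/ml (edgeR FDR = 0.0879 and 0.0957). The neuronal sum, which holds *Map2* and *Tubb3* beside markers of low level, was 195 to 232 TPM with 30 and 183 to 214 TPM with 100 ng/ml. Of 5 fibroblast markers 2 rose with 100 ng/ml, and of 2 tested endothelial markers *Flt1* fell at both concentrations. *Mbd1* was higher at both concentrations, and the part of cell composition in these results was not tested.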

How the data were processed

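Bulk RNA-seq of 15 cultures was used, 1 deposited file for each. The authors deposited estimated counts, TPM, lengths and effective lengths of 121798 transcripts in columns that a pseudoaligner writes. Their methods and processing notes name FastQC 0.10.0, STAR 2.7.8a on GRCm39, featureCounts and GENCODE M26, so how these estimates were made is not given in the sources used here.

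Transcripts were assigned to genes with GENCODE M39 by identifier (99.0% matched), and estimated counts were summed by gene and rounded. Genes that reached 1 CPM in 2 or more cultures were scaled with TMM and tested in 1 model of the 3 groups with edgeR 4.0.16 (R 4.3.3, limma 3.58.1), quasi-likelihood test, Benjamini-Hochberg FDR under 0.05 over all 15360 genes. CPM are TMM-scaled; the SE is the log2 fold change over the root of the F statistic. Transcripts were fitted the same way. Shares of *Mbd1* were compared by two-sided exact permutation (scipy 1.17.1), adjusted over 12 tests. On simulated data of 15233 genes, for 100 ng/ml against unstimulated, 78.6% of 98 genes changed by 0.5 and 96.0% of 99 changed by 1 on the log2 scale were called. Changes under 0.5, the size of every member's difference, were not simulated, so these shares do not tell how often such differences would be found.

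Alternatives were other scalings, filters, DESeq2 1.42.0, a likelihood-ratio test, a replicate block, effective lengths and each culture left out. Members and lists were chosen with earlier results of these data known. The text names the 8 members, every listed gene that passed in any comparison, *Fgf2*, *Htr1a*, *Mbd1* transcripts with at least 5% of its reads and the 5 genes most like *Mbd1*; listed genes near the threshold, *Chd4*, *Cxxc1*, *Kdm2a*, *Tdg* and marker genes were named after their values were seen. A further gene that this rule named is not reported here. Depth was 25746096 to 38435850 estimated reads, which gave 4720 to 8109 reads of *Mbd1* and 239 to 384 of *Mbd4*. Unassigned transcripts held 0.677% to 0.712% of reads and were left out.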

Additional observations from a re-analysis of the deposited data

Results flagged for a closer look

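Over 69 groups of 5 values, 4 held a culture whose gap to its nearest neighbour exceeded Dixon's 95% limit of 0.71 of the group's range, and chance alone gives about 1 in 20 groups. *Mbd4* in replicate 4 at 30 ng/ml was the lowest of its group at 8.21 CPM, with the nearest at 10.1 CPM. *Cxxc5* in unstimulated replicate 1 was lowest at 64.1 CPM, with the nearest at 67.5 CPM. In replicate 2 at 30 ng/ml Mbd1-202 had the highest share of *Mbd1* counts of its group, 44.4% with the nearest at 42.8%, and Mbd1-205 the lowest, 11.9% with the nearest at 13.6%.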

How the results depend on the processing

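*Mbd1* kept its direction and its call at both concentrations in every alternative run. The 2 members called with 100 ng/ml became 1 (*Mbd1*) under RLE factors, with no low-count filter, with the replicate block, with protein-coding transcripts only, with only the compared groups fitted and at an FDR of 0.01; for the mean of both concentrations 2 became 1 with no filter and at 0.01. The 5 listed genes called with 100 ng/ml became 3 with no filter or with effective lengths, 9 with DESeq2, 10 with the likelihood-ratio test, 1 at an FDR of 0.01 and 11 at 0.1. With 30 ng/ml 3 became 1 with effective lengths or at 0.01 and 5 at 0.1, and for the mean 6 became 11 with DESeq2 or at 0.1 and 3 at 0.01. The share of all genes called moved as well, and it is given here for effective lengths and DESeq2 only. Counts under the other settings can thus not be set against all genes. With effective lengths it was 5.90% with 100 and 5.05% with 30 ng/ml. With DESeq2 it was 12.8% with 100 ng/ml and 15.1% for the mean. The 2 *Mbd1* transcripts called with 30 ng/ml became 1 with no filter or the replicate block. The cause of these changes was not tested.

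With each culture left out in turn, 1 to 3 members were called with 100 ng/ml and for the mean, 1 with 30 ng/ml and 0 between concentrations. Listed genes called numbered 3 to 12, 1 to 4, 0 to 1 and, for the mean, 4 to 12, and *Mbd1* transcripts 3, 1 to 2 and 0. The share of all genes or transcripts called in each fit is not set beside these counts. The share of Mbd1-202 differed by 0.824 to 3.23 points with 100 ng/ml, 0.731 to 2.25 with 30 ng/ml and -0.55 to 1.85 between them, negative without replicate 4 at 100 ng/ml.

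Signs turned only for differences that were not called. Leaving out 1 culture, the 100 against 30 ng/ml difference ranged over -0.022 to 0.056 for *Mbd3*, -0.023 to 0.098 for *Mbd6* and -0.075 to 0.013 for *Dnmt3a*; that with 30 ng/ml over -0.017 to 0.069 for *Mbd5* and -0.043 to 0.037 for *Mbd6*; and that with 100 ng/ml over -0.088 to 0.0011 for *Mbd4* and -0.018 to 0.103 for *Mbd6*. Other settings gave 0.00031 for *Mbd2* and 0.083 for *Dnmt3a* (100 against 30, effective lengths), -0.0069 for *Mbd3* (100 against 30, library size alone) and -0.0045 for *Mbd4* (30, protein-coding only).

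Same-numbered cultures did not deviate together (r = -0.18 to 0.26 over 15 pairs, against -0.24 to 0.31 for other numbers), so the numbers were not taken as pairs. With the replicate block 717 genes were higher and 452 lower with 100 ng/ml, and *Dnmt1*, *Uhrf1* and *Foxk1* had FDRs of 0.0526, 0.0503 and 0.0602, and *Setdb1* for the mean 0.0806. Within numbers, sign flips on the shares cannot go below 0.0625 and gave no p under it.

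Depth limited the transcripts at under 1% of *Mbd1* reads and *Mbd4*, at 239 to 384 reads, and the cultures were few and mixed.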
